A study of Homo sapiens with 6 samples.

Results

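Claudins and their partners build the tight junction, the seal between neighbouring epithelial cells. Described here are 10 genes of this seal among the 31369 genes counted in HK-2 cells, namely CLDN1, CLDN2, CLDN3, CLDN4, CLDN7, CLDN11, CLDN12, OCLN, TJP1 and F11R. These genes were selected by gene symbol, with the fold changes of these same samples already known. Their differences between the groups, and whether they passed thresholds, are therefore given as a description only, and no p-value is printed for them. All 10 were found, and 9 had counts high enough to enter the fit across all genes, while CLDN7 did not. After PPM1K overexpression the transcripts of these genes differed in direction and size. CLDN1 was 2.75-fold higher, CLDN2 was 5.64-fold lower and F11R was 1.77-fold lower. CLDN11, TJP1, CLDN4, CLDN12, CLDN3 and OCLN stayed within a log2 fold change of 0.5 in either direction.

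Claudins are membrane proteins with paired extracellular loops that meet claudins of the facing cell, and the mixture of claudins a cell makes decides which ions cross between cells. Barrier-forming claudins such as CLDN1 and CLDN4 restrict that flow, whereas CLDN2 forms a channel for small cations and water and is typical of the leaky proximal tubule of the kidney. Occludin (OCLN) and the immunoglobulin-like junctional adhesion molecule A (F11R) lie in the same membrane strands or beside them, and the scaffold ZO-1 (TJP1) ties claudin tails to actin.

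HK-2 is a line of immortalised proximal tubule epithelium from adult human kidney. The control group (NC, 3 samples) carries the genotype label WT, and the overexpression group (OE, 3 samples) the label PPM1K overexpress. PPM1K encodes a mitochondrial phosphatase, and a PPM1K plasmid was delivered with Lipofectamine 2000. The plasmid's promoter and the content of the control transfection are not given in the sources used here. All 6 samples share the label day 10 and a treatment entry of chronic kidney disease. The sample titles name shControl and shPPM1K, against the genotype entries, and the cell line entries run from HK-2 to HK-12 in steps across the samples. The PPM1K counts were 37, 19 and 53 in NC and 3294, 3531 and 2919 in OE, which goes with the genotype entries. The replicates are described as biological in the study, without a statement of separate cultures or transfections, so errors and p-values measure the spread between these samples, which may be technical. Fewer expressing cells and less RNA per cell cannot be told apart in such bulk samples.

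Depth ranged from 34635770 to 36116963 counted reads per sample in NC and from 36033404 to 39850802 in OE. NC replicate 2 stood apart in genes detected, with 26478 against 22094 to 22913 in the other samples. The paper also lists the largest antisense and intergenic read shares for it. OE replicate 3 differed most from its replicates, with a mean chi-square per gene of 11.8 and 10.7. Every other pair within a group was at 5.13 to 7.14. Of the defining proximal tubule markers, LRP2, CUBN, SLC34A1, AQP1, ANPEP, ALPL and HNF4A were at or close to 0 in both groups. By contrast, PAX8, a kidney lineage factor, was well above 0 (27.7 and 33.5 in NC and OE) in mean FPKM, the fragment count scaled to transcript length and to the mapped fragments of the library. The epithelial keratin KRT18 was at 180 and 186 FPKM and did not differ. KRT8 (289.2 and 209.5), KRT19 (212.2 and 153.9) and EPCAM (121.7 and 104.5) were lower in OE, and KRT7 (35.3 and 45.9) was higher. The epithelial cadherin CDH1 was close to 0 (0.313 and 0.150). Transcripts of the mesenchymal markers VIM (174.9 and 139.2) and FN1 (432.5 and 332.7) were also high. The brush border enzyme GGT1 (0.283 and 0.133) and the glucose transporter SLC5A2 (0.170 and 0.0833) were low and both were called lower in OE (adjusted p = 0.00337 and 0.0215). General tubular and epithelial transcripts were thus present, as were some mesenchymal ones, and those of the differentiated proximal tubule were low or near 0.

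The sequence just before the annotated start is shown for CLDN1, CLDN2, CLDN4 and CLDN11, the member claudins whose groups did not overlap. They are the 250 bases upstream of the start in RefSeq (GRCh38.p14), read 5′ to 3′ on the strand of the gene. RefSeq gives 2 starts each for CLDN2 and CLDN11, and the first is shown for CLDN11. Capitals mark matches on either strand to short motifs: the TATA box TATAAA; the CCAAT box CCAAT; the GC box GGGCGG; the E-box CAGGTG read by SNAI and ZEB factors; the AP-1 site TGANTCA; and the ATF4 and C/EBP composite TGATGCAA.
CLDN1, minus strand of chr3:190322447-190322696: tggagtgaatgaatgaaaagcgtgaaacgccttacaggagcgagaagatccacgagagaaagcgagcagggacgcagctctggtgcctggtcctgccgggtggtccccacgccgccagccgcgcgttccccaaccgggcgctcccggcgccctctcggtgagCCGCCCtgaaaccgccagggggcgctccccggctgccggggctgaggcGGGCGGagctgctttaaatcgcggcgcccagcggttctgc
CLDN2, first start, plus strand of chrX:106899914-106900163: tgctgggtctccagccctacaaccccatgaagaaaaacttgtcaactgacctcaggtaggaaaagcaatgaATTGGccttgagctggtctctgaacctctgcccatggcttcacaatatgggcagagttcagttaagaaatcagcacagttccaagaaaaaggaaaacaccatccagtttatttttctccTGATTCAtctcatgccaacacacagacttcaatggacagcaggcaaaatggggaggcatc
CLDN2, second start, plus strand of chrX:106918110-106918359: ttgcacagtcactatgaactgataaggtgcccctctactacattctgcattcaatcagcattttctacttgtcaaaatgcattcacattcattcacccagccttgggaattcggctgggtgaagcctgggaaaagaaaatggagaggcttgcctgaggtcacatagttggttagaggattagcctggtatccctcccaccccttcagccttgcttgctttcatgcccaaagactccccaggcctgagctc
CLDN4, plus strand of chr7:73830746-73830995: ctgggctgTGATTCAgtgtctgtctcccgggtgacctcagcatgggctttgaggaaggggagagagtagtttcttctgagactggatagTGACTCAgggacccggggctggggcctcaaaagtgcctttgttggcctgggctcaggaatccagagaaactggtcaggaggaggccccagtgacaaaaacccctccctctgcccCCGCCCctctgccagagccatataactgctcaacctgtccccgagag
CLDN11, first start, plus strand of chr3:170418618-170418867: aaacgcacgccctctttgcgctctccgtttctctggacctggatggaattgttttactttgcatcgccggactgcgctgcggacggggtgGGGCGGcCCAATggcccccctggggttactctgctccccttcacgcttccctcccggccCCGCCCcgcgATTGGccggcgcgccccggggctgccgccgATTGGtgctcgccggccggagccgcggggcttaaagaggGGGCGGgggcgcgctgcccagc

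The windows differed in base composition, measured over 300 bases that run 50 bases past the start. GC content was 67.0% for CLDN1 and 72.0% for the first CLDN11 start, against 47.3% and 51.3% for the CLDN2 starts, with CLDN4 at 59.0%. The CLDN1 window held GC boxes and no other listed motif, and the second CLDN2 window held none of these motifs. An AP-1 match occurred in the first CLDN2 window and at 2 places in the CLDN4 window, and in none of the other windows of these genes. Among all 35116 promoters of the same length, 45.0% held a GC box, 34.6% a CCAAT box, 20.6% the E-box, 11.5% the TATA box, 7.71% an AP-1 site and 0.866% the ATF4 and C/EBP composite. Over all 16 starts of the 9 genes with an entry, neither the TATA box nor the ATF4 and C/EBP composite was matched. A match describes letters in a window and does not show that a factor binds there.

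CLDN1 was the most abundant of the 10 genes in both groups. Its FPKM was 60.70, 56.98 and 59.04 in NC replicates 1 to 3 and 155.57, 167.14 and 170.03 in OE replicates 1 to 3. The lowest OE sample was far above the highest NC sample, and the replicates of each group lay close together. On the log2 scale OE exceeded NC by 1.46 (standard error 0.050). CLDN1 (ENSG00000163347.6) occupies chromosome 3 from 190305707 to 190322446, minus strand (GENCODE 44, GRCh38), and overlaps no other annotated gene. The gene next to it is CLDN16, which starts 94 bases away in the opposite direction in GENCODE 44. That start, at 190322541, lies inside the CLDN1 window shown above. CLDN16 FPKM was 1.47, 1.60 and 1.49 in NC and 2.87, 2.77 and 3.44 in OE, so these neighbours were both higher in OE at very different levels. On the other side P3H2, a collagen prolyl hydroxylase gene, had a log2 fold change of -0.17.

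CLDN2 had the largest difference of the tested members. Its FPKM was 5.58, 4.84 and 5.76 in NC and 1.02, 1.10 and 0.77 in OE, from counts of 711, 640 and 765 against 140, 159 and 101. Every OE sample was below every NC sample by a wide margin. The log2 fold change was -2.49 (standard error 0.12), and it lay between -2.60 and -2.36 when each sample was left out in turn. CLDN2 (ENSG00000165376.12) lies on the plus strand of chromosome X from 106900164 to 106930861. It overlaps MORC4 and RIPPLY1 on the other strand, of which only RIPPLY1 shares exon bases with it. The libraries were prepared with a stranded kit, but whether counting used the strand is not stated, so the assignment of reads in shared bases is uncertain. RIPPLY1 held 24, 24 and 20 counts in NC and 9, 13 and 9 in OE, far fewer than CLDN2. These counts do not show how reads in shared bases were assigned.

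The other barrier claudins differed less. CLDN4, which together with CLDN3 forms a gene pair on chromosome 7, had FPKM of 7.33, 6.36 and 6.73 in NC and 5.2, 5.43 and 5.04 in OE. The groups did not overlap, and OE was the lower one (log2 fold change -0.40, standard error 0.070). CLDN3 was at 1.41, 2.15 and 1.89 in NC and 1.25, 1.99 and 1.23 in OE. Its groups overlapped, since OE replicate 2 was above 2 of the NC samples, and the log2 fold change of -0.30 had a standard error of 0.21. Both are receptors for a clostridial enterotoxin, and their genes lie 29272 bases apart, CLDN3 (ENSG00000165215.6) from 73768997 to 73770270 on the minus strand and CLDN4 (ENSG00000189143.10) from 73799542 to 73832690 on the plus strand. The ratio of CLDN4 to CLDN3 in FPKM was 3.91 ± 1.16 (SD, n = 3) in NC and 3.66 ± 0.809 in OE, a difference within the spread of the samples.

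CLDN11, a claudin best known from myelin and from the Sertoli cell barrier of the testis, was the runner-up in level in both groups. Its FPKM was 23.08, 22.56 and 22.50 in NC and 27.70, 28.03 and 28.19 in OE. The groups did not overlap because the replicates were very tight, although the log2 fold change was only 0.28 (standard error 0.048). The gene (ENSG00000013297.12) lies on chromosome 3 from 170418868 to 170454733 on the plus strand. CLDN12, an atypical claudin without the usual PDZ-binding tail, was at 2.38, 2.60 and 2.48 FPKM in NC and 2.49, 2.88 and 2.82 in OE. These ranges overlapped, and the log2 fold change was 0.11 (standard error 0.080). CLDN12 (ENSG00000157224.16, chromosome 7 from 90383721 to 90513402) shares exon bases on the same strand with GTPBP10 and CDK14, so its counts are uncertain. GTPBP10 had 416, 527 and 494 counts in NC and 831, 865 and 815 in OE, with no overlap between the groups. CLDN7, a claudin of collecting duct and other tight epithelia, had 4, 1 and 3 counts in NC and 14, 3 and 4 in OE and was not tested. Its gene (ENSG00000181885.18) lies on chromosome 17 from 7259903 to 7263983, and at this depth no difference was detectable.

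The partners of the claudins did not share a direction. F11R FPKM was 10.96, 10.61 and 10.50 in NC and 5.55, 6.46 and 6.38 in OE. All OE samples were below all NC samples (log2 fold change -0.82, standard error 0.062). TJP1 was at 7.07, 7.28 and 6.57 in NC and 9.01, 9.24 and 10.79 in OE, so here the OE samples were above. The TJP1 log2 fold change was 0.45 (standard error 0.061), with OE replicate 3 the highest sample. OCLN was at 0.28, 0.31 and 0.38 in NC and 0.33, 0.30 and 0.43 in OE, and its groups overlapped. Its log2 fold change, 0.11 with a standard error of 0.16, changed sign to -0.05 without OE replicate 3, so no direction can be given for occludin. F11R (ENSG00000158769.18) lies on chromosome 1 from 160995211 to 161021343 on the minus strand and shares exon bases on that strand with the less counted ENSG00000270149. TJP1 (ENSG00000104067.17) lies on chromosome 15 from 29699367 to 29968915 on the minus strand. OCLN (ENSG00000197822.12) lies on chromosome 5 from 69492292 to 69558104 on the plus strand and has a pseudogene copy elsewhere on that chromosome, so its low counts are also uncertain.

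**Figure D1:**
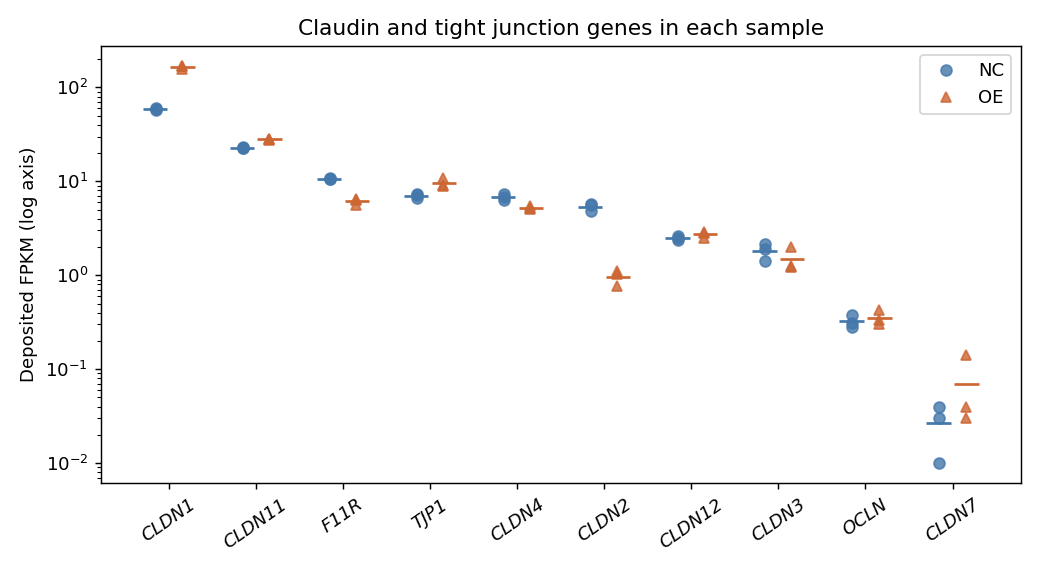
Deposited FPKM (log axis) of the 10 genes in each of the 6 samples, NC as circles and OE as triangles, with bars at the group means. CLDN1 separates upward in OE (155.57 to 170.03 against 56.98 to 60.70) and CLDN2 downward (0.77 to 1.10 against 4.84 to 5.76), while CLDN12, CLDN3, OCLN and CLDN7 overlap.

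A gene was called when its adjusted p was under 0.05 and its fold change was above 2 or below 0.5. Of the 15878 genes tested, 274 (1.73%) were called higher and 601 (3.79%) lower in OE. Among the 9 tested members, 1 was called higher (CLDN1) and 1 lower (CLDN2). On adjusted p alone 24.9% of all tested genes were higher and 23.7% lower, and among the members 3 were higher (CLDN1, CLDN11 and TJP1), 3 were lower (CLDN2, CLDN4 and F11R) and 3 were neither (CLDN3, CLDN12 and OCLN). In counts scaled to library size, 55.3% of all tested genes had groups that did not overlap, as did 6 of the 10 members, 3 with OE above and 3 with NC above. The median log2 fold change was 0.11 over the tested members and -0.0032 over all tested genes. Because the members were picked with these values known, nothing is read from their counts.

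**Figure D2:**
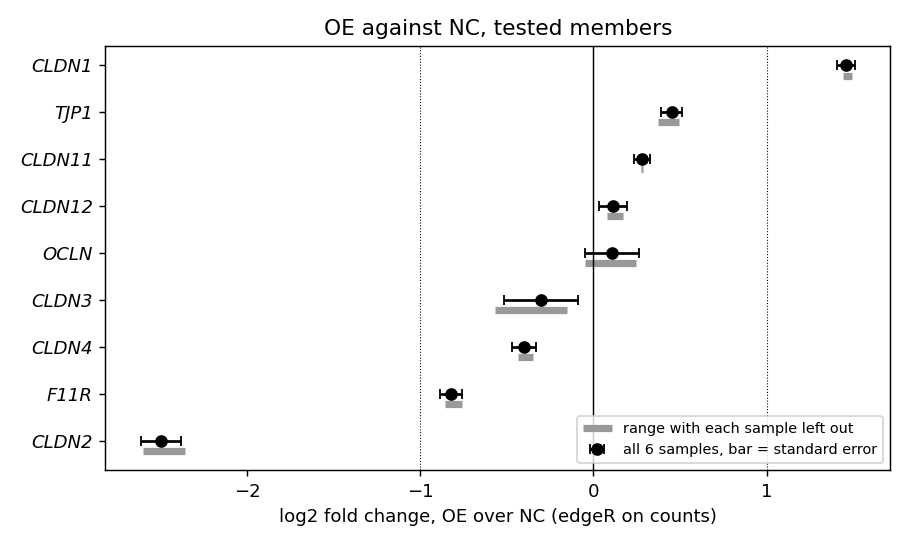
Log2 fold change of OE over NC for the 9 tested members on the horizontal axis, as points with standard errors from all 6 samples and grey bars for the range when each sample was left out. Dotted lines mark a fold change of 2 in either direction, which only CLDN1 (1.46) and CLDN2 (-2.49) pass.

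Levels can be compared between genes on the FPKM scale, which accounts for transcript length. In NC the order of mean FPKM was CLDN1 (58.9), CLDN11 (22.7), F11R (10.7), TJP1 (6.97), CLDN4 (6.81), CLDN2 (5.39), CLDN12 (2.49), CLDN3 (1.82), OCLN (0.323) and CLDN7 (0.0267). The ranges of neighbours in this order were separate except for TJP1 and CLDN4. In OE the order was CLDN1 (164), CLDN11 (28.0), TJP1 (9.68), F11R (6.13), CLDN4 (5.22), CLDN12 (2.73), CLDN3 (1.49), CLDN2 (0.963), OCLN (0.353) and CLDN7 (0.070), with no overlap of neighbouring ranges. Thus CLDN2 moved from above CLDN12 and CLDN3 to below both, and TJP1 and F11R exchanged places.

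The sum over 17 claudin genes, members and others, showed how the mixture differed. Summed claudin FPKM was 103.1, 97.9 and 101.2 in NC and 197.0, 210.8 and 212.8 in OE. CLDN1 made up 58.5% ± 0.357 (SD, n = 3) of this sum in NC and 79.4% ± 0.488 in OE. The other tested member claudins took a smaller share in OE, CLDN11 at 22.6% and 13.5%, CLDN4 at 6.75% and 2.53%, CLDN2 at 5.35% and 0.467%, CLDN12 at 2.47% and 1.32%, and CLDN3 at 1.81% and 0.719%, while CLDN7 stayed at a trace (0.0262% and 0.0347%). For CLDN11 and CLDN12 the share was smaller although their own FPKM was not, because the total was larger. Per sample, the FPKM ratio of CLDN1 to CLDN2 was 10.88, 11.77 and 10.25 in NC and 152.5, 151.9 and 220.8 in OE. The higher ratio of CLDN1 to the pore-forming CLDN2 was thus present in each OE sample at the transcript level. Protein levels and ion flow were not measured in these files.

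**Figure D3:**
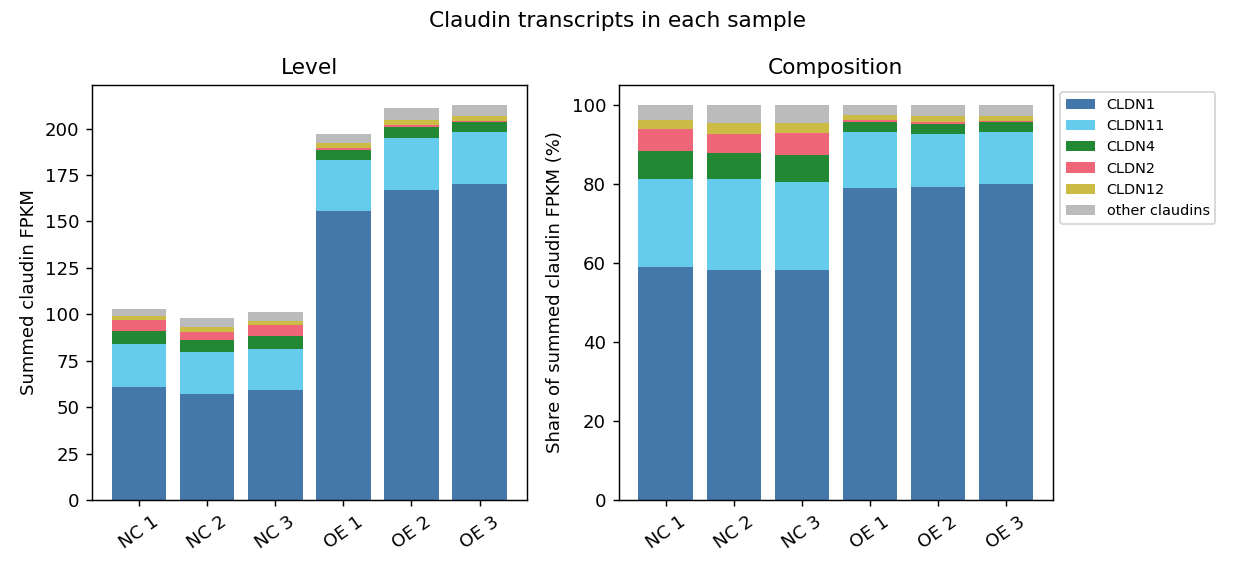
Summed FPKM of 17 claudins in each of the 6 samples (left) and the share of each claudin in percent of that sum (right), stacked by gene. The total was 97.9 to 103.1 in NC and 197.0 to 212.8 in OE, and the CLDN1 share was 58.2% to 58.9% in NC and 79.0% to 79.9% in OE.

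The remaining junction genes were described by hand-written lists that hold no member. The lists were drawn up with earlier results of these data known, so their shares and p-values are a description only. In all, 127 of their 138 genes were in the count table and 104 were tested. By the quasi-likelihood test of edgeR, adjusted after Benjamini and Hochberg, 25 (24.0%) rose, 35 (33.7%) fell and 44 did not pass an adjusted p of 0.05. With the fold threshold as well, 3 were called higher and 6 lower. Tested against a fold change of 2 itself, 5 of these 9 still passed (CGNL1, MYL9, CDH6, GJB2 and KLF4), while ESAM, MARVELD3, CDH1 and CDH3 did not. Over the 104 genes the median log2 fold change was -0.07, against -0.0032 over all tested genes. The shares that rose and fell are to be read against 24.9% and 23.7% of all tested genes.

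Among the other claudins 10 of 17 were in the count table, the rest were not analysed here, and 3 had enough counts for the test. CLDN16, the neighbour of CLDN1 described above, is a claudin of magnesium and calcium reabsorption in the thick ascending limb. CLDN16 rose (log2 fold change 0.97, standard error 0.11, adjusted p = 3.05e-07), just under the fold threshold. It passed that threshold when NC replicate 2, OE replicate 1 or OE replicate 2 was left out (1.02, 1.00 and 1.03). CLDN15, a cation-pore claudin of the intestine, was at 0.30, 0.21 and 0.32 FPKM in NC and 0.41, 0.54 and 0.44 in OE (log2 fold change 0.75, adjusted p = 0.0195). That difference did not pass in DESeq2 (adjusted p = 0.0703), with limma on FPKM (0.0669 and 0.0897 with pseudocounts of 1 and 0.1), nor without NC replicate 2 (0.095) or OE replicate 2 (0.092). CLDN23 did not pass (adjusted p = 0.354). The list's median log2 fold change was 0.75.

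Of 10 tested other membrane proteins of the tight junction, 2 rose and 2 fell, with a median of -0.02. MARVELD3, a relative of occludin, was at 0.76, 0.94 and 0.83 FPKM in NC and 0.42, 0.41 and 0.39 in OE (log2 fold change -1.06, adjusted p = 1.98e-06). Without NC replicate 2 it was at -0.97 and no longer below the fold threshold. ESAM, an adhesion molecule better known from endothelium, rose from a very low level of 0.147 to 0.367 FPKM (log2 fold change 1.28, adjusted p = 0.00144). Markers of endothelium stood higher beside it, with PECAM1 and VWF passing the test among 3 tested of 6. Their summed FPKM was 0.57 to 0.73 in NC and 0.80 to 0.94 in OE, with KDR, TEK and CLDN5 close to 0, and their part in the ESAM result was not tested. ILDR2 fell (-0.52, adjusted p = 3.07e-04) but did not pass with limma on FPKM (0.0667 and 0.079 with pseudocounts of 1 and 0.1). LSR (lipolysis-stimulated receptor), the tricellular junction protein angulin-1, was the most abundant in NC and rose slightly, from 8.60 to 10.3 FPKM (0.24, adjusted p = 0.00791). MARVELD2 (tricellulin), a neighbour of OCLN in the genome, did not pass (0.51, adjusted p = 0.0635).

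The cytoplasmic plaque links junction membrane proteins to actin. Of its 16 tested genes 5 rose and 2 fell, with a median of 0.00091. The related scaffolds cingulin and paracingulin went opposite ways. CGNL1 (paracingulin) FPKM was 17.08, 16.65 and 15.92 in NC and 6.81, 6.50 and 7.52 in OE (log2 fold change -1.27, standard error 0.056, adjusted p = 1.37e-13). CGN (cingulin) was at 6.42, 6.53 and 6.51 in NC and 9.64, 10.04 and 10.81 in OE (log2 fold change 0.63, standard error 0.055, adjusted p = 7.5e-09). CGN thus stood below CGNL1 in all NC samples and above it in all OE samples. AMOTL2, an angiomotin family scaffold and the most abundant of the list, rose from 46.1 to 59.0 FPKM (0.34, adjusted p = 2.4e-05). The ZO-1 relative TJP3 did not pass (adjusted p = 0.0634), nor did PALS1 (listed as MPP5, 0.981).

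The polarity proteins set apical against basolateral membrane at the junction. Of 15 tested genes 3 rose and 6 fell (median -0.12), and none was called. DLG1 fell by 0.32 on the log2 scale (adjusted p = 1.21e-04), PRKCZ, the atypical protein kinase C, fell by 0.30 (adjusted p = 2.4e-04), and PARD3B rose by 0.55 (adjusted p = 2.94e-04, but 0.0509 with limma on log2(FPKM + 1)). PARD3, the most abundant, was at 35.7 and 38.0 FPKM and did not pass (adjusted p = 0.25).

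Among 18 tested signalling and myosin genes of the junction, 6 rose and 9 fell (median -0.17). MYL9, a myosin light chain gene, had FPKM of 218.83, 200.14 and 220.33 in NC and 95.05, 91.86 and 83.43 in OE (log2 fold change -1.26, standard error 0.059, adjusted p = 3.41e-13). MYL12A fell by 0.48 on the log2 scale (adjusted p = 7.3e-08) and MYH9, a non-muscle myosin heavy chain gene and the most abundant, by 0.37 (777 to 610 FPKM, adjusted p = 2.57e-05). ARHGEF2 (GEF-H1), a guanine nucleotide exchange factor that binds cingulin at junctions, rose (0.59, adjusted p = 4.86e-08).

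**Figure D4:**
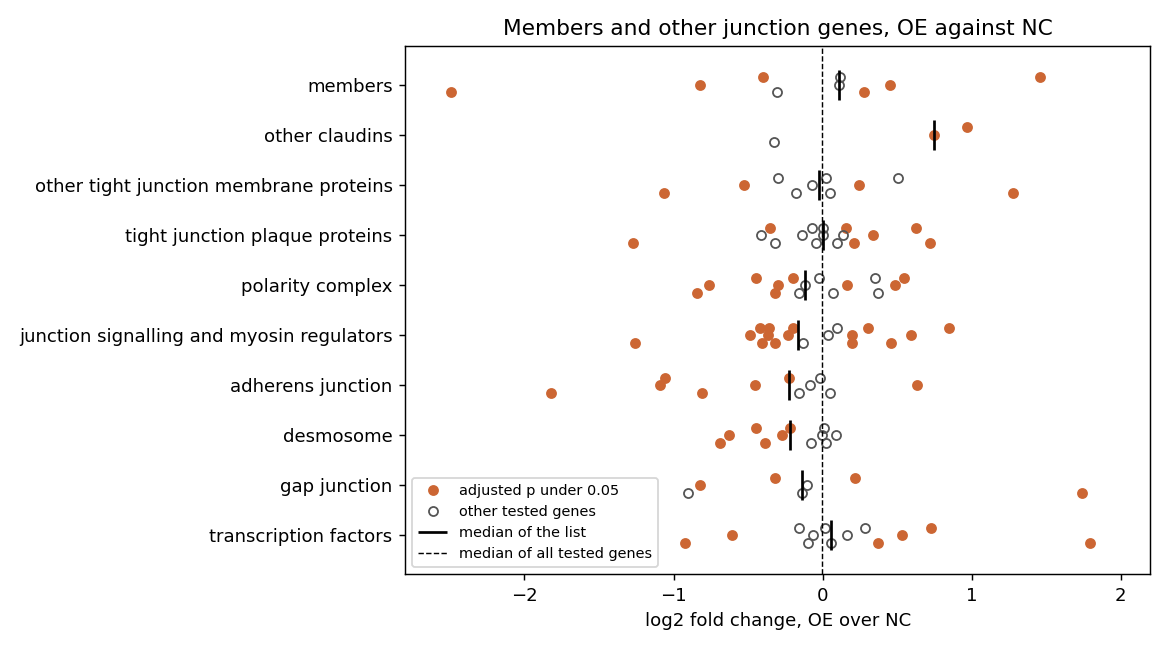
Log2 fold change of OE over NC for the 9 tested members and the tested genes of 9 junction lists, 1 point a gene, filled where the adjusted p is under 0.05. Black bars are list medians (from -0.23 for adherens junction to 0.75 for the 3 other claudins) and the dashed line is the median of all tested genes (-0.0032).

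Adherens junctions and desmosomes lie below the tight junction and hold the cells together. Of 11 tested adherens junction genes 1 rose and 6 fell, 3 of them called lower (median -0.23). CDH6, also named kidney cadherin, was at 13.36, 12.84 and 12.94 FPKM in NC and 3.74, 3.67 and 3.80 in OE (log2 fold change -1.82, standard error 0.050, adjusted p = 8.23e-17). CDH1 (E-cadherin) was nearly silent at 0.313 and 0.150 FPKM (-1.09, adjusted p = 0.00108), and without OE replicate 2 it was at -0.86, short of the fold threshold. With limma on FPKM it was also short of that threshold (-0.19 and -0.75 with pseudocounts of 1 and 0.1), and with the latter it did not pass (adjusted p = 0.0616). CDH3, at 0.113 and 0.050 FPKM, was called (-1.05, adjusted p = 0.0194) but did not pass in DESeq2 (adjusted p = 0.0779), with limma (0.0838 and 0.116) nor without NC replicate 2, OE replicate 1 or OE replicate 3 (0.13, 0.0796 and 0.0685). CTNNB1 (beta-catenin) fell (-0.45, adjusted p = 5.59e-07), NECTIN3 rose (0.63, adjusted p = 6.05e-08), and the most abundant gene, CTNNA1, was at 34.0 FPKM in both groups (adjusted p = 0.762). CDH2 (N-cadherin), the main classical cadherin by level, did not pass (0.05, adjusted p = 0.411).

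None of 11 tested desmosome genes rose and 6 fell, with a median of -0.22 and no gene called. JUP (plakoglobin) FPKM was 10.53, 9.27 and 9.83 in NC and 6.11, 6.53 and 6.04 in OE (-0.69, adjusted p = 1.39e-08). PPL (periplakin) and the desmosomal cadherin DSC3 also fell (-0.63 and -0.45), as did the most abundant gene, EVPL (46.7 to 40.8 FPKM, -0.22, adjusted p = 9.74e-04). Of 7 tested gap junction genes 2 rose and 2 fell (median -0.14). GJB2 (connexin 26) rose from 0.253 to 0.863 FPKM (log2 fold change 1.74, adjusted p = 1.78e-06), while GJA1 (connexin 43) fell (-0.82, adjusted p = 2e-06). PANX2 fell (-0.32, adjusted p = 0.0112) but did not pass without OE replicate 1 (0.0872) or with limma on FPKM (0.108 and 0.102 with pseudocounts of 1 and 0.1). GJC1, the most abundant, did not pass (-0.10, adjusted p = 0.114) but did under upper quartile normalization (0.0344).

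Of 13 tested transcription factors known to act on claudin genes, 4 rose and 2 fell (median 0.05). KLF4 FPKM was 1.88, 1.92 and 2.17 in NC and 7.30, 6.96 and 6.73 in OE (log2 fold change 1.79, standard error 0.086, adjusted p = 5.54e-13). SNAI2 (Slug), a repressor of epithelial junction genes, was at 16.28, 17.11 and 16.11 in NC and 28.78, 27.04 and 27.08 in OE (0.72, adjusted p = 9.67e-10). ELF3, an epithelial ETS factor, fell from 11.5 to 6.13 FPKM (-0.93, adjusted p = 2.59e-11). ZEB2 and SP1 also rose (0.37 and 0.53, adjusted p = 6.29e-04 and 6.53e-07). SNAI1, ZEB1 and TWIST1 did not pass (adjusted p = 0.342, 0.537 and 0.45), and HNF4A and CDX2 were near 0.

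The counts of cell type markers below come from short lists. They are to be read against 24.9% of all tested genes higher and 23.7% lower in OE, and they do not show that a marker set moved. Of 7 tested proximal tubule markers 1 rose and 3 fell (summed FPKM 55.19 to 59.68 in NC and 51.6 to 55.86 in OE). Of 6 simple epithelial markers 1 rose and 4 fell (776.6 to 872.3 and 667.5 to 726.2), and of 5 mesenchymal markers none rose and 3 fell (616.6 to 649.8 and 483.2 to 505.4). The summed level of podocyte markers was 2.17 to 2.55 and 2.66 to 3.06, that of other nephron segments, mostly CLDN16, 1.5 to 1.63 and 2.79 to 3.44, and that of leukocytes 0.22 to 0.38 and 0.12 to 0.18, with SCNN1G and PTPRC at or close to 0. The part of these differences in the junction results was not tested.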

How the data were processed

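RNA from 6 HK-2 samples, 3 NC and 3 OE by the genotype labels, was sequenced from stranded mRNA libraries. The authors filtered and trimmed reads, aligned them to GRCh38 with HISAT2 and deposited uncorrected read counts per gene (31369 genes) and FPKM values (30896 genes, 2 decimals). The counting program, annotation and strand setting in counting are not given in the sources used here. From the deposited counts, edgeR 4.0.16 (R 4.3.3) was run with filterByExpr, TMM and the quasi-likelihood F-test on all 6 samples, with Benjamini-Hochberg adjustment over the 15878 tested genes (biological coefficient of variation 6.30%). FPKM was used as deposited for levels, shares and ratios, without a pseudocount. Alternatives were DESeq2 1.42.0, limma 3.58.1 on log2(FPKM + 1) or log2(FPKM + 0.1), other normalizations and filters, glmTreat at a fold change of 2, a replicate block, and leaving out each sample.

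Members and lists were chosen with earlier results of these data known. Named are all members, PPM1K, and from each junction list every called gene with a mean count of at least 10, up to 3 genes with the smallest adjusted p and the gene with the highest NC FPKM, together with the 3 genes nearest in pattern to the member with the largest difference. CLDN23, MARVELD2, TJP3, PALS1, CDH2, GTPBP10, RIPPLY1, P3H2, the neighbours and further factors and markers with values were added after their values were seen. Same-numbered samples of NC and OE had correlations of deviations of -0.055 to 0.00083, so no pairing by number was detected. Whether they were paired in culture or preparation is not stated. No replicate pair agreed within sampling noise (mean chi-square per gene 5.13 to 11.8). On simulated counts for 15878 genes, with 200 genes shifted by 1.5 on the log2 scale, edgeR found 191 of them and made 2 false calls. In the real data a far larger share passed on adjusted p (24.9% higher and 23.7% lower). The simulation therefore does not give the error rate for these data. GENCODE 44 held 99.8% of the gene identifiers, ignoring versions. Promoter sequences are from RefSeq (GRCh38.p14), with entries for 9 of 10 members. Plots were made in Python 3.11.15 with matplotlib 3.10.9. Results for some listed genes are not reported here.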

Additional observations from a re-analysis of the deposited data

How the results depend on the processing

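The count of members called was 2 under every alternative, a description only, since the members were picked with these values known. In the test against a fold change of 2, CLDN4, CLDN11, TJP1 and F11R no longer passed an adjusted p of 0.05. No tested member's log2 fold change turned its direction except OCLN without OE replicate 3. CLDN3 reached an adjusted p under 0.05 only without OE replicate 2 (log2 fold change -0.57). Of all tested genes 875 were called, and this number was 186 in the test against a fold change of 2, 123 with limma on log2(FPKM + 1) and 512 on log2(FPKM + 0.1), where low genes are compressed, and 862 to 955 with each sample left out. The 60 other junction genes with an adjusted p under 0.05 became 5 in the test against a fold change of 2. Their number was 55 with DESeq2, and 42 and 44 with limma on FPKM with pseudocounts of 1 and 0.1. With each sample left out it was 57 to 60. With the replicate block 877 genes and 56 other junction genes passed. CLDN7 and OCLN are limited by low counts, and CLDN2 was -1.70 with limma on log2(FPKM + 1). ESAM and MARVELD3 with either pseudocount in limma, and GJB2 and FGB with a pseudocount of 1, did not reach the fold threshold.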

Other observations

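Over the 6 samples, the genes whose log2 CPM (counts scaled to library size), centred on their mean, lay nearest to those of CLDN2 by Euclidean distance were CTD-3128G10.7 (distance 0.249), ID1 (0.438) and FGB (0.516). ID1, an inhibitor of basic helix-loop-helix factors, had 475, 463 and 635 counts in NC and 94, 118 and 96 in OE. FGB, the fibrinogen beta chain, had 206, 183 and 197 counts in NC and 33, 34 and 34 in OE. All of them were chosen by that likeness to CLDN2, so their direction is fixed by the choice.

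Of the genes next to members, GTF2H2C, which lies 2087 bases from OCLN, was at 1.17, 1.5 and 1.20 FPKM in NC and 2.26, 2.60 and 2.44 in OE, while OCLN itself overlapped between groups. TBC1D8B, beside CLDN2, was at 0.47, 0.55 and 0.46 in NC and 0.23, 0.29 and 0.44 in OE. MORC4, which overlaps CLDN2 on the other strand, was at 75.95, 75.44 and 78.09 FPKM in NC and 50.78, 52.74 and 50.22 in OE.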
